A study of Mus musculus with 6 samples.

Results

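Lung identity transcription factors are the DNA-binding proteins that specify the cell types of the lung and keep them in place, and 10 of them were followed here in whole mouse lungs: *Nkx2-1*, *Foxa1*, *Foxa2*, *Gata6*, *Sox2*, *Sox9*, *Sox17*, *Foxf1*, *Tbx4* and *Tbx5*. The genes were chosen by name. All 10 were found in the deposited table, as 23 Ensembl transcripts, among 22158 genes and 70782 Ensembl transcripts in all, and transcripts were summed per gene. The lungs came from mice of the inbred strain BALB/c, with an age of 9 weeks in the labels. Whether that is the age at the start of the instillations or at harvest is not stated. PM2.5 mice received fine airborne particulate matter at 5 mg per kg of body weight, in 50 µl of saline, through the trachea at weekly intervals over 8 weeks. Saline mice received 50 µl of saline by the same route and schedule, so anaesthesia and instillation were common to both groups. There were 3 PM2.5 libraries and 3 saline libraries, numbered 2, 3 and 4 in each group. Nothing in the labels states that libraries of a group were made from different mice, and the p-values therefore measure the spread between these libraries, which may be technical. Whole lungs carry no cell sorting, so every value is a mixture over cell types.

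The lung epithelium grows from foregut endoderm that switches on *Nkx2-1*, and the FOXA and GATA6 proteins open and drive genes in the same cells. SOX2 marks the future airways and SOX9 the growing distal tips, while SOX17 is used in arterial endothelium, among other tissues. The surrounding mesenchyme uses *Foxf1*, a target of Hedgehog signalling that is also active in capillary endothelium, together with the T-box factors *Tbx4* and *Tbx5*. In the adult organ these proteins sustain surfactant, secretory, vascular and stromal gene expression.

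Values are FPKM, fragment numbers corrected for the length of a transcript and the size of a library, so that levels can be set side by side between genes. The unit was inferred from the values. The 3 PM2.5 libraries summed to 353805 to 373635 FPKM and the 3 saline libraries to 345089 to 388125. The depth is not stated, and the spacing of low values gave an estimate of 18.65 to 21.85 M fragments in PM2.5 libraries and 20.9 to 22 M in saline libraries. With it, 3 fragments of a 1 kb transcript are worth 0.136 to 0.161 FPKM, which covers counting error only. PM2.5 replicate 4 had the lowest estimated depth and the most transcripts listed at 0, with 37122. Transcripts named MERGE, which have no position and no gene in the table, held 17.6% to 20.6% of a library's FPKM, so fragments of a listed gene may lie there. Some genes used by every cell are listed at or near 0 in individual libraries, and a value of 0 is therefore reported only as listed at 0.

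No lung identity factor passed the threshold for a difference between PM2.5 and saline lungs. *Foxf1*, the mesenchymal and capillary factor, was the only one whose groups did not overlap, with 13.3 ± 5.25 FPKM in PM2.5 lungs and 49.3 ± 10.8 FPKM in saline lungs (SD, n = 3 each). Summed with a noncoding transcript inside the gene, it was 99.0 ± 2.23 FPKM in PM2.5 lungs and 171 ± 31.3 FPKM in saline lungs. *Gata6* was listed at or near 0 in 2 PM2.5 libraries and was over 10 FPKM in PM2.5 replicate 4 and in all saline libraries. *Foxa1*, *Foxa2*, *Sox2*, *Sox17*, *Tbx4* and *Tbx5* had overlapping groups and log2 fold changes between -0.33 and 0.42. *Nkx2-1* and *Sox9* were too low to be tested.

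Of the 10 factors, 8 averaged at least 0.5 FPKM across the libraries and entered the comparison with limma on log2(FPKM + 0.5). Of these, 0 of 8 had an adjusted p under 0.05, against 0.0942% of the 14865 genes tested (0.074% higher and 0.0202% lower, a split that turned to 0 higher and 5 lower genes without PM2.5 replicate 4). An unadjusted p under 0.05 was found for 1 of the 8, against 11.5% of all genes. Groups did not overlap for 1 of the 8, against 18.8% of all genes, and for the 1 factor concerned the PM2.5 values were the lower ones, as for 11.8% of all genes. Read against these shares, the counts show nothing particular to the factors. The log2 fold change was negative for 5 and positive for 3, with a median of -0.27, beside a median of -0.03 over all tested genes, of which 56% had a negative value. All fold changes are PM2.5 over saline on the log2(FPKM + 0.5) scale, which understates the change of low genes.

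**Figure D1:**
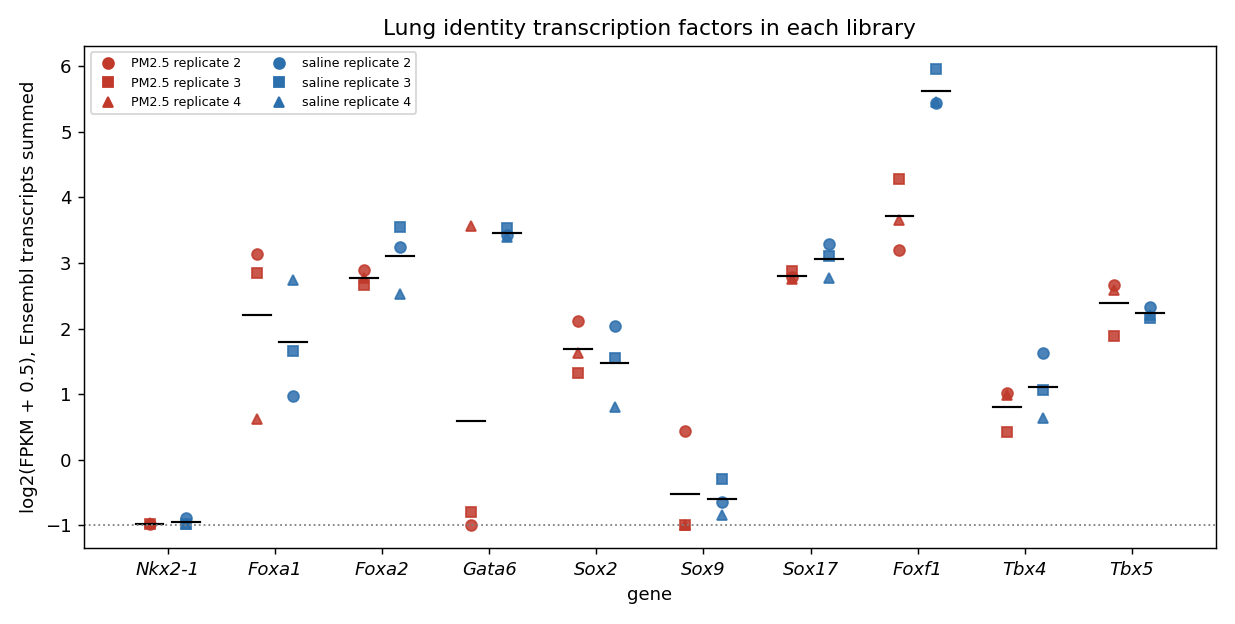
Level of each factor in each library as log2(FPKM + 0.5), with PM2.5 libraries in red to the left of saline libraries in blue, the replicate number as the symbol and the group mean of the log2 values as a black line. The dotted line marks 0 FPKM. *Foxf1* is the only gene at a tested level whose red and blue points do not overlap, and *Gata6* has 2 PM2.5 points near the line of 0 FPKM.

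The order of the levels was read within each group, by the group mean. The PM2.5 libraries of *Gata6* were listed at 0, 0.0745 and 11.3 FPKM, so its place in the PM2.5 order describes no single library. In PM2.5 lungs *Foxf1* was highest, followed by *Sox17*, *Foxa2*, *Foxa1*, *Tbx5*, *Gata6*, *Sox2*, *Tbx4*, *Sox9* and *Nkx2-1*. Neighbours in that order had separate ranges only for *Foxf1* over *Sox17* and for *Sox2* over *Tbx4*. In saline lungs the order was *Foxf1*, *Gata6*, *Foxa2*, *Sox17*, *Tbx5*, *Foxa1*, *Sox2*, *Tbx4*, *Sox9* and *Nkx2-1*. Separate ranges there were those of *Foxf1* over *Gata6*, *Sox17* over *Tbx5*, *Tbx4* over *Sox9* and *Sox9* over *Nkx2-1*. All other neighbours overlapped.

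*Nkx2-1* (ENSMUSG00000001496, chromosome 12, 56531958 to 56536908, minus strand, mm10), the homeodomain factor that defines lung and thyroid fate, was listed at 0.00962, 0.0091 and 0.0107 FPKM in PM2.5 replicates 2, 3 and 4, against 0.0406, 0.0091 and 0.00955 FPKM in saline replicates 2, 3 and 4. Every library lay below the value of 3 fragments on a 1 kb transcript, and the gene did not pass the filter. Without that filter its log2 fold change was -0.027 ± 0.037 (SE, adjusted p = 0.831 with limma), between values that are all close to 0. Its 2 listed transcripts, ENSMUST00000178477 and ENSMUST00000001536, were both near 0 in all libraries. Genes known as its targets were abundant in the same libraries. *Sftpb*, a surfactant protein gene, was 1587, 1900 and 1637 FPKM in PM2.5 libraries, against 1524, 1762 and 1767 FPKM in saline libraries. The listed level of *Nkx2-1* thus does not bear out its label as a lung factor in this table, and whether its fragments were assigned to an unplaced transcript was not tested.

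The start of *Nkx2-1* is shown because a noncoding transcript near the gene was well measured while the gene itself was not. The 250 bases before the start of ENSMUST00000001536 are given 5′ to 3′ on the gene's strand, from RefSeq on GRCm38.p6, with motif matches in capitals.
*Nkx2-1*, chr12:56536909-56537158, minus strand: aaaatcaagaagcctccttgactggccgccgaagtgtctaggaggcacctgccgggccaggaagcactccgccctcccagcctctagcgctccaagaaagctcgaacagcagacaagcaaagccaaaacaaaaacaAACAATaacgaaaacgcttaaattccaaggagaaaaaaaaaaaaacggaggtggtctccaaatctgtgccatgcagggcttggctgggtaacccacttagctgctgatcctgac
The capitals mark a match to AACAAT, the letters searched for SOX factors, 114 bases before the start. The NONCODE transcript NONMMUT014305.2, on the same strand and 7399 bases from the gene's span, was 24.5, 21.4 and 25.2 FPKM in PM2.5 libraries, against 22.3, 20.7 and 21.9 FPKM in saline libraries. It was therefore far above *Nkx2-1* in every library, and its groups overlapped (log2 fold change 0.13 ± 0.11 SE, adjusted p = 0.719 with limma). NONMMUT087098.1, on the opposite strand 8565 bases away, was 5.32, 5.35 and 5.89 FPKM in PM2.5 libraries, against 4.17, 4.12 and 5.26 FPKM in saline libraries. All PM2.5 values were above all saline values, but the log2 fold change of 0.27 ± 0.14 (SE) had an adjusted p of 0.584 with limma. The kit does not mark strand, so the strand of these transcripts is that of the annotation.

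*Foxa1* (ENSMUSG00000035451, chromosome 12, 57540631 to 57546121, minus strand), a pioneer factor that opens chromatin in endodermal epithelium, was 8.31, 6.73 and 1.04 FPKM in PM2.5 libraries, against 1.47, 2.65 and 6.17 FPKM in saline libraries. PM2.5 replicates 2 and 3 were above all saline libraries and PM2.5 replicate 4 was below all of them, so the groups overlapped over their whole range. limma gave a log2 fold change of 0.42 ± 0.78 (SE; 95% interval -1.48 to 2.31, adjusted p = 0.873), and without PM2.5 replicate 2 it was -0.051. The interval is wide enough to hold a change of more than 1 log2 unit in either direction.

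*Foxa2* (ENSMUSG00000037025, chromosome 2, 148042877 to 148046969, minus strand), the closely related pioneer factor, was 6.93, 5.86 and 6.33 FPKM in PM2.5 libraries, against 9.00, 11.3 and 5.28 FPKM in saline libraries. The PM2.5 libraries lay close together inside the wider saline range. Its log2 fold change was -0.33 ± 0.26 (SE; 95% interval -0.98 to 0.31, adjusted p = 0.669 with limma). *Foxa2* has 3 listed transcripts with 3 separate starts. ENSMUST00000109964 held 60.2% of the gene's FPKM in PM2.5 lungs and 68.4% in saline lungs (means of 3). It was 4.47, 3.34 and 3.75 FPKM in PM2.5 libraries, against 4.76, 9.45 and 3.62 FPKM in saline libraries. Saline replicate 3 alone carried the high value. ENSMUST00000047315, from the most upstream start, was 1.90, 1.99 and 2.07 FPKM in PM2.5 libraries, against 3.56, 1.36 and 1.28 FPKM in saline libraries. ENSMUST00000146242 was the lowest, with 0.557, 0.527 and 0.514 FPKM in PM2.5 libraries, against 0.678, 0.454 and 0.384 FPKM in saline libraries. None of the 3 passed the threshold, with log2 fold changes of -0.47, 0.07 and 0.05.

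The sequences before the starts of *Foxa1* and *Foxa2* are shown because these 4 starts give the transcripts just described. Each is the 250 bases before a start, 5′ to 3′ on the gene's strand, from RefSeq on GRCm38.p6, with motif matches in capitals.
*Foxa1*, chr12:57546112-57546361, minus strand: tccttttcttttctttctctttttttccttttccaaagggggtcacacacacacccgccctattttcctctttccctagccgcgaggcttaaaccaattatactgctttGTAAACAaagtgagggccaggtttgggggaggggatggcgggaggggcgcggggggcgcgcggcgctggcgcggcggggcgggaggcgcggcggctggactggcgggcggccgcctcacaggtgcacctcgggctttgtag
*Foxa2*, ENSMUST00000047315, chr2:148046970-148047219, minus strand: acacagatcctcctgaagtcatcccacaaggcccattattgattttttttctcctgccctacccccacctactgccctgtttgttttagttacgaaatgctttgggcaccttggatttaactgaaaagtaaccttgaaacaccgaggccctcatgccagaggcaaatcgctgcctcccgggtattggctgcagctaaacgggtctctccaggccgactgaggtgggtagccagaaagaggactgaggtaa
*Foxa2*, ENSMUST00000109964, chr2:148045949-148046198, minus strand: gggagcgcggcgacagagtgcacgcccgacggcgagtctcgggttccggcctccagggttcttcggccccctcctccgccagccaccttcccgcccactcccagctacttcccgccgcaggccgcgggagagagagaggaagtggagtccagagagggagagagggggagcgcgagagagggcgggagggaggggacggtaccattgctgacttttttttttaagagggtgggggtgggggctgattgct
*Foxa2*, ENSMUST00000146242, chr2:148045465-148045714, minus strand: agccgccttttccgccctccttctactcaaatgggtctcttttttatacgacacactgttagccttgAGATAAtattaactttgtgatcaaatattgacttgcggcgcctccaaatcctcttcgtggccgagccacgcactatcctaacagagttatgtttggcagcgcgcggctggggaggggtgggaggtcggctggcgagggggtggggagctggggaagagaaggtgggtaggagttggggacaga
The 3 *Foxa2* starts are those of the deposited transcripts, and the RefSeq start of *Foxa1* lies 10 bases from the deposited one. The letters searched on both strands were TGTTTNC for FOX factors, AACAAT for SOX factors, AGATAA for GATA factors, CACTTNA for NKX2 factors and GGTGTGA for T-box factors. They were found in 17.8%, 9.42%, 9.99%, 10.1% and 3.33% of 32851 windows of the same length. The FOX and SOX letters can share bases, but no window of a factor held more than 1 match. The *Foxa1* window held a FOX match on the opposite strand, 141 bases before the start. The *Foxa2* window of ENSMUST00000146242 held a GATA match 183 bases before the start, and the other 2 *Foxa2* windows held none. The main *Foxa2* start, that of ENSMUST00000109964, had 67.2% G and C, against 50.8% and 54.4% for the upstream and downstream ones and a median of 52.4% over all windows. The windows of *Sox2* and *Tbx4* held no match, and a match is a description of letters and not of binding. Promoter windows were used for 5 of the 10 factors.

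Beside *Foxa1*, the NONCODE transcript NONMMUT014336.2 starts 113 bases away on the opposite strand, inside the window shown above. It was 2.29, 1.85 and 2.31 FPKM in PM2.5 libraries, against 2.01, 1.89 and 1.92 FPKM in saline libraries. Its values stayed within a narrow range while those of *Foxa1* spanned 1.04 to 8.31 FPKM over the same libraries. Beside *Foxa2*, NONMMUT147094.1, on the same strand 3055 bases from the gene's span, was 1.53, 1.81 and 2.62 FPKM in PM2.5 libraries, against 1.25, 1.35 and 1.21 FPKM in saline libraries. The groups did not overlap, and the log2 fold change of 0.47 ± 0.19 (SE) had an adjusted p of 0.529 with limma. NONMMUT147093.1, on the same strand 5013 bases from the span of *Foxa2*, had a higher mean. It was 2.45, 1.74 and 2.59 FPKM in PM2.5 libraries, against 1.84, 1.53 and 1.61 FPKM in saline libraries. Its groups overlapped (log2 fold change 0.34 ± 0.17 SE, adjusted p = 0.571 with limma).

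*Gata6* (ENSMUSG00000005836), a zinc finger factor of lung epithelium, smooth muscle and heart, was listed at 0 and 0.0745 FPKM in PM2.5 replicates 2 and 3 and was 11.3 FPKM in PM2.5 replicate 4, against 10.3, 11.1 and 10.0005 FPKM in saline libraries. PM2.5 replicate 4 was thus above every saline library, while the other PM2.5 libraries were at or near 0. The log2 fold change was -2.86 ± 1.22 (SE; 95% interval -5.84 to 0.11, adjusted p = 0.452 with limma), and with a pseudocount of 0.1 it was -4.17. Without PM2.5 replicate 4 it was -4.35, with an adjusted p of 0.00233 with limma (0.437 to 0.684 in the other alternatives). That setting keeps only the PM2.5 libraries at or near 0, and no mean is given for the group.

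With cut-offs of 0.1 and 5 FPKM, the pattern of *Gata6* was rare in the table. A looser pattern, under 0.1 FPKM in at least 1 library and over 5 FPKM in at least 1 other, was found for 125 genes (0.841% of the 14865 tested). Of the tested genes, 31 had under 0.1 FPKM or over 5 FPKM in every library with both present. Among these, 4 were low in 2 PM2.5 libraries and in no saline library, and 0 were low in 2 saline libraries and in no PM2.5 library. The other 3 of the 4 were *Mvb12a*, *Rnu3b4* and *Rpl8*, and none was low in the same PM2.5 libraries as *Gata6*. *Mvb12a* and *Rpl8* were low in PM2.5 replicates 2 and 4, and *Rnu3b4* in PM2.5 replicates 3 and 4. *Rpl8*, a ribosomal protein gene that all cells use, was listed at 0, 248 and 0.0154 FPKM in PM2.5 libraries, against 224, 199 and 208 FPKM in saline libraries. NONMMUT104095.1, an opposite-strand NONCODE transcript whose start lies 57 bases inside the start of *Gata6*, was 1.07, 1.44 and 2.10 FPKM in PM2.5 libraries, against 1.51, 1.13 and 1.33 FPKM in saline libraries. It was present in the libraries where *Gata6* was at or near 0. The source of the low listings was not tested.

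*Sox2* (ENSMUSG00000074637, chromosome 3, 34650405 to 34652461, plus strand), the factor of conducting airway epithelium, was 3.85, 2.00 and 2.59 FPKM in PM2.5 libraries, against 3.61, 2.45 and 1.26 FPKM in saline libraries. The groups overlapped, and the spread within each was larger than the difference between their means. With limma the log2 fold change was 0.22 ± 0.36 (SE; 95% interval -0.66 to 1.11, adjusted p = 0.851), and without saline replicate 4 it was -0.11. Markers of the airway cells that use *Sox2* are given with its target genes below.

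*Sox9* (ENSMUSG00000000567, chromosome 11, 112782224 to 112787760, plus strand), the factor of embryonic distal tips and of cartilage, was 0.850 FPKM in PM2.5 replicate 2 and listed at 0 in PM2.5 replicates 3 and 4, against 0.138, 0.313 and 0.0576 FPKM in saline libraries. It was below the mean of 0.5 FPKM needed for a test. Without that filter its log2 fold change was 0.07 ± 0.42 (SE). The 7 cartilage markers summed to 16.7, 0.0608 and 0.0929 FPKM in PM2.5 libraries, against 0.117, 1.196 and 0.271 FPKM in saline libraries. *Col2a1*, the main cartilage collagen, was 3.11, 0 and 0.0104 FPKM in PM2.5 libraries, against 0, 0.309 and 0.0233 FPKM in saline libraries. The library highest in *Sox9* was therefore also the library highest in cartilage markers, and in saline the same held for saline replicate 3. Between saline replicates 2 and 4 the order was reversed, with replicate 2 higher in *Sox9* and replicate 4 higher in the markers. The *Sox9* values of saline replicates 2 and 4 lay below the value of 3 fragments on a 1 kb transcript. The part of cartilage in these values was not tested.

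*Sox17* (ENSMUSG00000025902, chromosome 1, 4490931 to 4497354, minus strand), a factor of arterial endothelium, was 6.42, 6.83 and 6.25 FPKM in PM2.5 libraries, against 9.29, 8.11 and 6.32 FPKM in saline libraries. Only PM2.5 replicate 4 was below all saline libraries, and by a small margin. Its log2 fold change was -0.25 ± 0.15 (SE; 95% interval -0.61 to 0.12, adjusted p = 0.571 with limma). In bulk lung RNA, fewer cells of a type and less RNA per cell cannot be told apart. The 7 arterial markers found, of which 6 were tested, summed to 147 to 171 FPKM in PM2.5 libraries and 207 to 269 FPKM in saline libraries. Of the 6 tested, 4 had a negative log2 fold change, 2 had groups that did not overlap and 0 passed the threshold. Over all tested genes, 56% had a negative log2 fold change and 18.8% had groups that did not overlap. Without *Mgp*, whose group means differed most, the other 6 summed to 81.1 to 88.3 FPKM in PM2.5 libraries and 89.9 to 102 FPKM in saline libraries. The part of arterial cell content in the level of *Sox17* was not tested.

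*Sox17* had 7 listed transcripts, of which 4 were tested. ENSMUST00000192650, the isoform with the most upstream start, was 2.39, 2.4999 and 2.24 FPKM in PM2.5 libraries, against 3.28, 3.16 and 2.25 FPKM in saline libraries. ENSMUST00000192505, a short transcript within the gene, was 2.43, 2.52 and 2.00 FPKM in PM2.5 libraries, against 2.33, 2.19 and 2.26 FPKM in saline libraries. Together they made up more of the gene than the other 5. ENSMUST00000027035 was listed at 0, 1.29 and 0 FPKM in PM2.5 libraries, against 0.836, 1.23 and 0.998 FPKM in saline libraries. It varied between libraries more than the sum did, and had an adjusted p of 0.607 with limma. NONMMUT000028.2, on the opposite strand and with 28.4% of its length inside *Sox17*, was 0.507 to 0.700 FPKM in PM2.5 libraries and 0.505 to 0.755 FPKM in saline libraries. Fragments of the overlap cannot be told apart by strand.

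*Foxf1* (ENSMUSG00000042812, chromosome 8, 121084386 to 121088144, plus strand) encodes a forkhead factor of lung mesenchyme and capillary endothelium, required in development for the pulmonary vessels. It was 8.70, 19.0 and 12.1 FPKM in PM2.5 libraries, against 42.7, 61.8 and 43.4 FPKM in saline libraries. The highest PM2.5 library was below the lowest saline library. The log2 fold change was -1.90 ± 0.30 (SE; 95% interval -2.63 to -1.17), which corresponds to a 3.74-fold lower level in PM2.5 lungs. The unadjusted p was 0.000685 and the adjusted p 0.130 with limma, so *Foxf1* did not pass the threshold. There were 77 genes with a smaller p. With each library left out in turn the log2 fold change stayed between -2.19 and -1.65, with adjusted p of 0.0997 to 0.340.

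A NONCODE transcript, NONMMUT067457.2 (chromosome 8, 121086966 to 121088115), lies wholly inside the 3′ part of *Foxf1* on the same strand. It was 92.8, 79.6 and 84.98 FPKM in PM2.5 libraries, against 92.3, 128 and 145 FPKM in saline libraries. Its groups overlapped by the margin between PM2.5 replicate 2 and saline replicate 2. Its log2 fold change was -0.48 ± 0.18 (SE; unadjusted p = 0.0392, adjusted p = 0.519 with limma). Fragments from the shared stretch could have been assigned to either transcript. The sum of both was therefore taken as well. It was 101, 98.6 and 97.1 FPKM in PM2.5 libraries, against 135, 190 and 188 FPKM in saline libraries. The groups again did not overlap, at 99.0 ± 2.23 FPKM in PM2.5 lungs and 171 ± 31.3 FPKM in saline lungs (SD, n = 3 each). The log2 fold change of the sum was -0.77 ± 0.15 (SE; 95% interval -1.13 to -0.41, unadjusted p = 0.0018, adjusted p = 0.195 with limma), which is less than that of *Foxf1* alone. The Ensembl transcript made up 8.57%, 19.3% and 12.4% of the sum in PM2.5 libraries, against 31.6%, 32.5% and 23.1% in saline libraries. The share of *Foxf1* within its locus was thus lower in every PM2.5 library than in every saline library. This share is a ratio of the values above and no separate result.

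**Figure D2:**
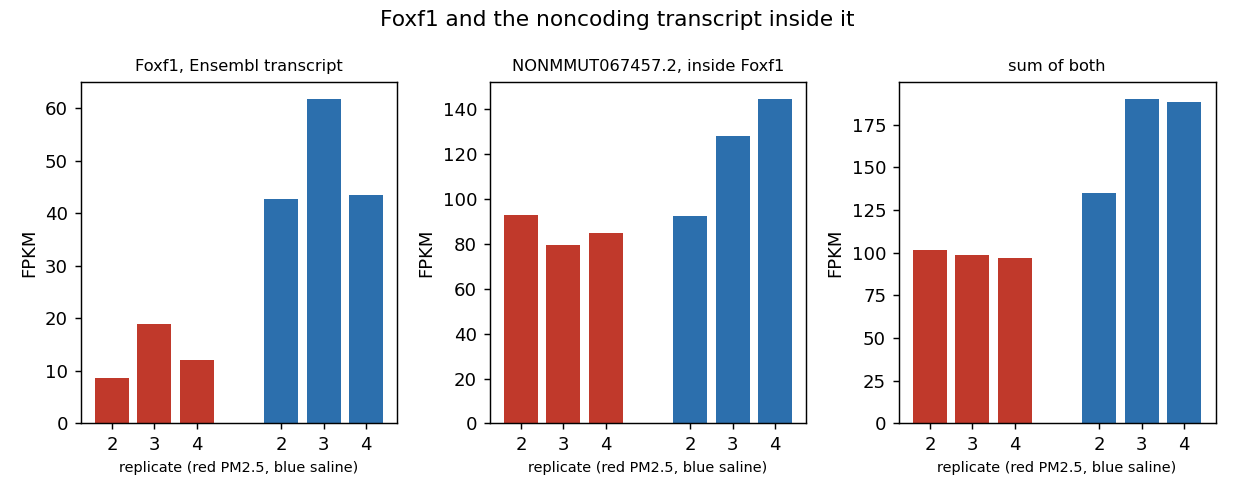
FPKM of the Ensembl transcript of *Foxf1* (left), of NONMMUT067457.2 inside it (middle) and of their sum (right) in each library, with PM2.5 libraries in red to the left of saline libraries in blue. The Ensembl transcript and the sum do not overlap between groups, while NONMMUT067457.2 overlaps at 92.8 FPKM in PM2.5 replicate 2 and 92.3 FPKM in saline replicate 2.

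*Fendrr*, the long noncoding RNA transcribed away from *Foxf1*, was listed at 0, 0.786 and 0.837 FPKM in PM2.5 libraries, against 0.784, 0.362 and 0.260 FPKM in saline libraries. It was far below *Foxf1* in every library and its groups overlapped. *Foxf2*, the paralog of *Foxf1*, was 6.50, 5.93 and 8.29 FPKM in PM2.5 libraries, against 6.05, 10.1 and 7.47 FPKM in saline libraries (adjusted p = 0.801 with limma). Markers of the cells that use *Foxf1* had lower summed levels in PM2.5 libraries, but in both lists the separation did not hold without 1 gene. The 10 endothelial markers summed to 1125 to 1287 FPKM in PM2.5 libraries and 1316 to 1402 FPKM in saline libraries, and the 10 fibroblast markers to 446 to 505 FPKM in PM2.5 libraries and 511 to 554 FPKM in saline libraries. Without *Cldn5*, a tight junction gene, the other 9 endothelial markers summed to 1027 to 1180 FPKM in PM2.5 libraries and 1076 to 1238 FPKM in saline libraries, which overlap. *Cldn5* itself was 97.5, 107 and 90.2 FPKM in PM2.5 libraries, against 225, 257 and 164 FPKM in saline libraries (log2 fold change -1.11, adjusted p = 0.139 with limma). The median log2 fold change of the endothelial markers was -0.03, the same as that of all genes to 2 decimals. Of the 10, 7 were negative, beside 56% of all tested genes. Without *Col3a1*, a collagen gene, the other 9 fibroblast markers summed to 381 to 422 FPKM in PM2.5 libraries and 400.02 to 445 FPKM in saline libraries, which overlap as well. Groups did not overlap for 4 of the 10 fibroblast markers, against 18.8% of all genes, and of these 3 were lower and 1 was higher. The higher one was *Pdgfra*, a receptor of fibroblasts, with 114, 122 and 116 FPKM in PM2.5 libraries, against 103, 96.6 and 111 FPKM in saline libraries. No marker of either list passed the threshold, and their part in the level of *Foxf1* was not tested.

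*Tbx4* (ENSMUSG00000000094, chromosome 11, 85886422 to 85916097, plus strand), a T-box factor of lung mesenchyme, was 1.53, 0.846 and 1.48 FPKM in PM2.5 libraries, against 2.59, 1.58 and 1.05 FPKM in saline libraries. The groups overlapped, and only PM2.5 replicate 3 was below all saline libraries. For the gene the log2 fold change was -0.29 ± 0.31 (SE; 95% interval -1.04 to 0.45, adjusted p = 0.746 with limma). Of its 3 transcripts, ENSMUST00000108047, named here after its values were seen, was 0.426, 0.4997 and 0.573 FPKM in PM2.5 libraries, against 1.79, 1.30 and 0.665 FPKM in saline libraries. Its groups did not overlap, and the log2 fold change was -0.76 ± 0.28 (SE; unadjusted p = 0.0361, adjusted p = 0.514 with limma). It made up 27.8% to 59.1% of the gene in PM2.5 libraries and 63.4% to 82.2% in saline libraries. ENSMUST00000108045, from a downstream start, was 0.640, 0 and 0.512 FPKM in PM2.5 libraries, against 0.556, 0 and 0 FPKM in saline libraries. ENSMUST00000000096 was 0.346 to 0.466 FPKM in PM2.5 libraries and 0.240 to 0.384 FPKM in saline libraries. These isoforms share most of their sequence, and how fragments were divided among them is not given in the sources used here.

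*Tbx5* (ENSMUSG00000018263, chromosome 5, 119832668 to 119885219, plus strand), the T-box factor of lung mesenchyme and heart, was 5.86, 3.20 and 5.54 FPKM in PM2.5 libraries, against 4.54, 3.97 and 4.12 FPKM in saline libraries. PM2.5 replicates 2 and 4 were above all saline libraries and PM2.5 replicate 3 was below them. Its log2 fold change was 0.15 ± 0.23 (SE; 95% interval -0.40 to 0.70, adjusted p = 0.835 with limma). ENSMUST00000018407 made up 88.4% of the gene in PM2.5 lungs and 86.6% in saline lungs (means of 3). The 10 cardiac muscle markers, of which heart tissue left on the lung would be a source, summed to 293, 38.9 and 56.8 FPKM in PM2.5 libraries, against 200, 421 and 199 FPKM in saline libraries. Of the 9 tested, 9 had a negative log2 fold change, beside 56% of all tested genes. Their median was -1.73, and 0 passed the threshold. Among PM2.5 libraries replicate 3 was lowest in both *Tbx5* and these markers, while among saline libraries replicate 3 was lowest in *Tbx5* and highest in the markers. The part of cardiac tissue in *Tbx5* and *Gata6* was not tested. On the opposite strand, with a start 639 bases from that of *Tbx5*, NONMMUT054228.2 was 1.81, 1.16 and 1.43 FPKM in PM2.5 libraries, against 0.123, 0.513 and 1.38 FPKM in saline libraries. Its groups overlapped through saline replicate 4 (log2 fold change 0.88 ± 0.42 SE, adjusted p = 0.559 with limma). NONMMUT054226.2, from the same start, was 0.691, 0.810 and 0.832 FPKM in PM2.5 libraries, against 1.02, 0.128 and 0.806 FPKM in saline libraries. Its groups overlapped as well (log2 fold change 0.24 ± 0.36 SE, adjusted p = 0.836 with limma).

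**Figure D3:**
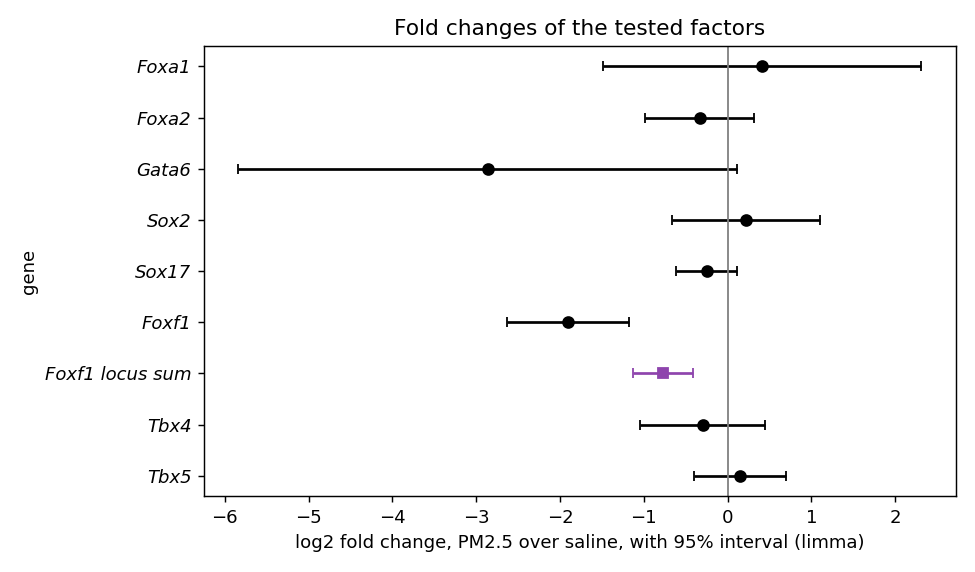
log2 fold change of FPKM + 0.5, PM2.5 over saline, for the 8 tested factors (circles) and for the *Foxf1* locus sum (square), with 95% intervals from limma. Only *Foxf1* and its locus sum have intervals that leave out 0, and the interval of *Gata6* reaches from -5.84 to 0.11.

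Across the isoforms, 13 of the 23 transcripts of the factors were tested. Of these 0 had an adjusted p under 0.05, against 0.152% of 60525 transcripts. An unadjusted p under 0.05 was found for 2, against 9.46% of all transcripts, and groups did not overlap for 2, against 17.1%. Both counts were those of the *Foxf1* transcript and ENSMUST00000108047 of *Tbx4*. Among the 18 other transcripts selected within 10 kb of a factor, 11 were tested and 0 had an adjusted p under 0.05. An unadjusted p under 0.05 was found for 1, NONMMUT067457.2 inside *Foxf1*. Groups did not overlap for 2, NONMMUT087098.1 next to *Nkx2-1* and NONMMUT147094.1 next to *Foxa2*.

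**Figure D4:**
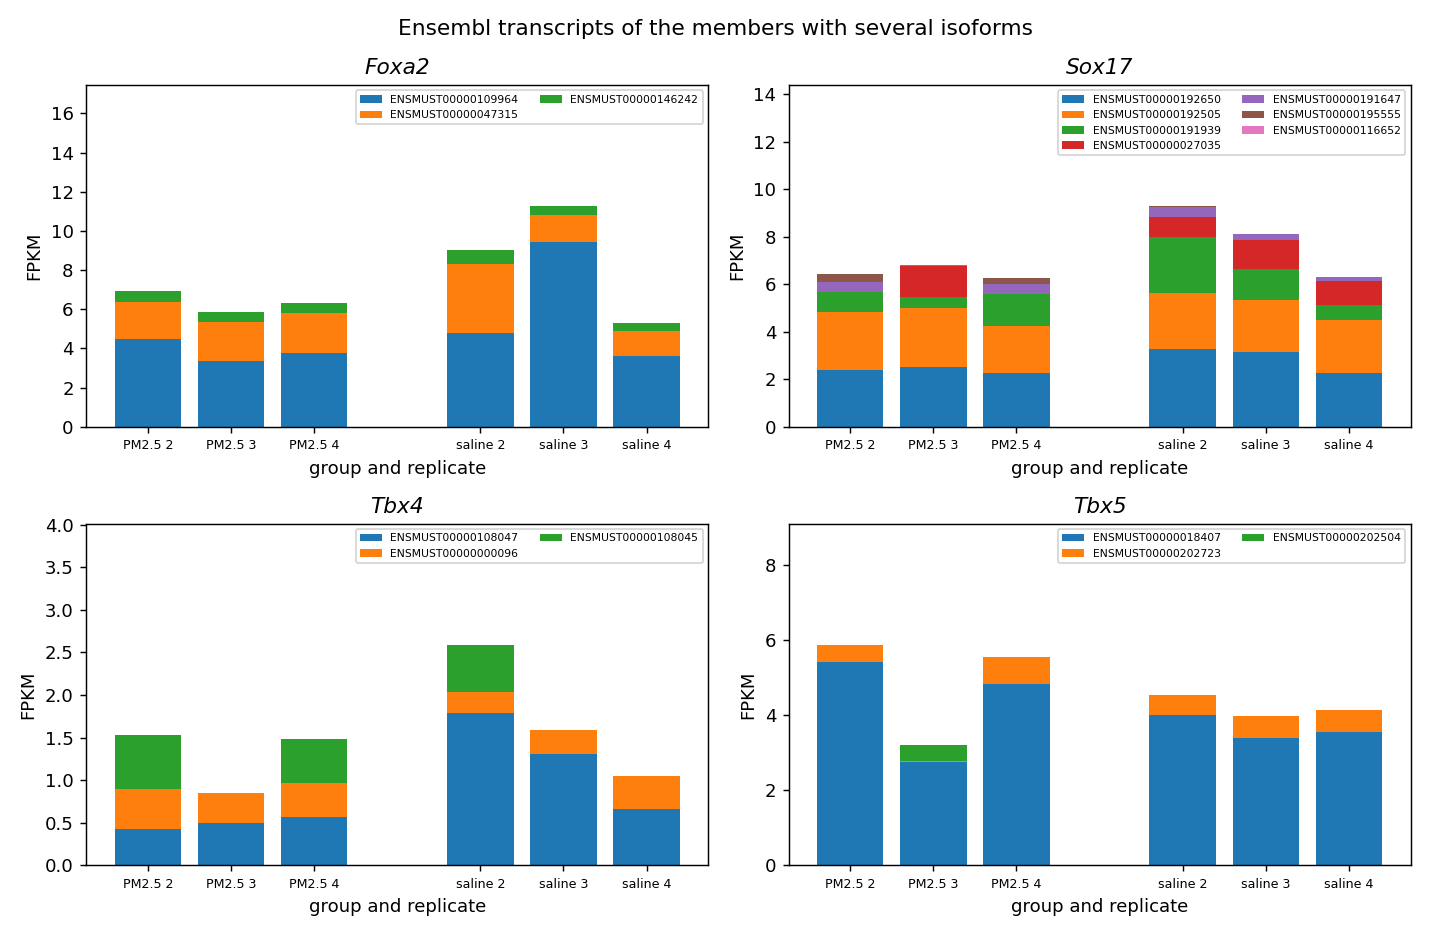
FPKM of each Ensembl transcript of *Foxa2*, *Sox17*, *Tbx4* and *Tbx5*, stacked per library, with PM2.5 libraries to the left of saline libraries. The blue part of *Tbx4*, ENSMUST00000108047, is at most 0.573 FPKM in PM2.5 libraries and at least 0.665 FPKM in saline libraries, and the blue part of *Foxa2* is high in saline replicate 3.

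Genes of the same pathways were read from the same comparison, in 8 lists. No gene of these lists passed the threshold in either direction, and counts of groups that did not overlap are to be read beside the 18.8% over all genes. The signals that specify the lung (Wnt, FGF, BMP, Hedgehog and retinoic acid genes) had 23 of 25 tested, with 0 higher and 0 lower past the threshold, 6 with groups that did not overlap and a median log2 fold change of 0.04. *Wnt2*, a mesenchymal signal that induces *Nkx2-1* in the embryo, was 6.25, 5.48 and 7.94 FPKM in PM2.5 libraries, against 9.41, 8.62 and 10.5 FPKM in saline libraries (log2 fold change -0.51, adjusted p = 0.325 with limma). *Spry4*, an FGF feedback inhibitor, was 10.5, 11.2 and 9.85 FPKM in PM2.5 libraries, against 11.7, 21.0 and 23.3 FPKM in saline libraries (-0.74, adjusted p = 0.372). Both had every PM2.5 value below every saline value. *Aldh1a2*, which makes retinoic acid, lay the other way, with 2.32, 2.76 and 2.64 FPKM in PM2.5 libraries, against 1.94, 1.62 and 1.74 FPKM in saline libraries (0.44, adjusted p = 0.320). *Aldh1a2* is also active in mesothelium, and the 7 mesothelial markers summed to 17.9 to 26.7 FPKM in PM2.5 libraries and 9.54 to 14.0 FPKM in saline libraries. Of the 6 mesothelial markers tested, 6 had a positive log2 fold change and 5 had groups that did not overlap. Over all tested genes, 56% had a negative log2 fold change and 18.8% had groups that did not overlap. Without *Msln* the other 6 still separated, at 10.9 to 13.9 FPKM in PM2.5 libraries and 5.49 to 7.73 FPKM in saline libraries, and their part in *Aldh1a2* was not tested.

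Other epithelial transcription factors had 20 of 23 tested, with 0 past the threshold, 5 with groups that did not overlap and a median log2 fold change of -0.15. *Irx1*, an Iroquois factor of the branching lung, was 7.30, 8.92 and 5.12 FPKM in PM2.5 libraries, against 15.3, 15.4 and 11.2 FPKM in saline libraries (-0.95 ± 0.23 SE, adjusted p = 0.253 with limma). *Hopx*, a homeodomain protein of alveolar type 1 cells, was 2.83, 2.36 and 1.52 FPKM in PM2.5 libraries, against 4.94, 3.36 and 3.99 FPKM in saline libraries (-0.77, adjusted p = 0.326). *Cebpa*, a leucine zipper factor of alveolar type 2 cells and macrophages, was 16.5, 21.6 and 16.6 FPKM in PM2.5 libraries, against 23.2, 24.9 and 23.8 FPKM in saline libraries (-0.40, adjusted p = 0.327). All 3 had non-overlapping groups without passing the threshold. Of the 5 genes of the list with groups that did not overlap, 4 were lower and 1 was higher in PM2.5 libraries.

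Other endothelial factors had 13 of 15 tested, 0 past the threshold, 2 with groups that did not overlap and a median of -0.10. *Klf2*, the factor that endothelium switches on under blood flow, was 21.1, 24.9 and 15.4 FPKM in PM2.5 libraries, against 44.9, 44.0 and 43.8 FPKM in saline libraries. Its log2 fold change was -1.12 ± 0.17 (SE, adjusted p = 0.126 with limma), with a distance between the groups larger than the spread within either. *Fli1*, an ETS factor, had a log2 fold change of -0.20 and non-overlapping groups, and its locus sum had one of 0.15. *Foxo1* was listed at 0.00523 FPKM in PM2.5 replicate 3 and lay between 2.75 and 3.44 FPKM in the other 5 libraries, and without that library its log2 fold change was -0.11 in place of -1.03. Other mesenchymal factors had 11 of 13 tested, 0 past the threshold, 1 with groups that did not overlap and a median of -0.12. That gene was *Zeb2*, a zinc finger repressor of epithelial genes, with 48.1, 26.8 and 25.0 FPKM in PM2.5 libraries, against 52.4, 54.2 and 49.2 FPKM in saline libraries (-0.70, adjusted p = 0.382). Its locus sum had a log2 fold change of -0.28. *Zeb1* had one of -0.87 and its locus sum one of -0.12, and *Tcf21* one of -0.31, both with overlapping groups. Leaving out a library gave -1.33 to -0.53 for *Zeb1* and -0.44 to -0.16 for *Tcf21*.

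Of 18 listed paralogs of the factors 14 were found and 7 tested, with 0 past the threshold, 1 with groups that did not overlap and a median of -0.16. It was *Tbx2*, a T-box repressor of lung mesenchyme, with 0.638, 0.475 and 0.513 FPKM in PM2.5 libraries, against 1.85, 4.47 and 0.989 FPKM in saline libraries (-1.32 ± 0.43 SE, adjusted p = 0.356 with limma). *Sox18*, the endothelial relative of *Sox17*, and *Gata3* had log2 fold changes of -0.42 and 0.37 with overlapping groups, and leaving out a library gave -0.72 to -0.18 and 0.19 to 0.60. The 12 cofactors were all tested, with 0 past the threshold, 2 with groups that did not overlap and a median of -0.09. *Ncoa1*, a nuclear receptor coactivator, was listed at 0.0131, 0.0294 and 0.00725 FPKM in PM2.5 libraries, against 10.5, 0.0418 and 3.998 FPKM in saline libraries, so that 4 of 6 libraries were near 0. Its log2 fold change was -2.53, and -0.73 as a locus sum. *Nfia* and *Hdac2* had log2 fold changes of -0.56 and 0.14, and that of *Nfia* was -0.28 as a locus sum and -0.30 without PM2.5 replicate 3.

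**Figure D5:**
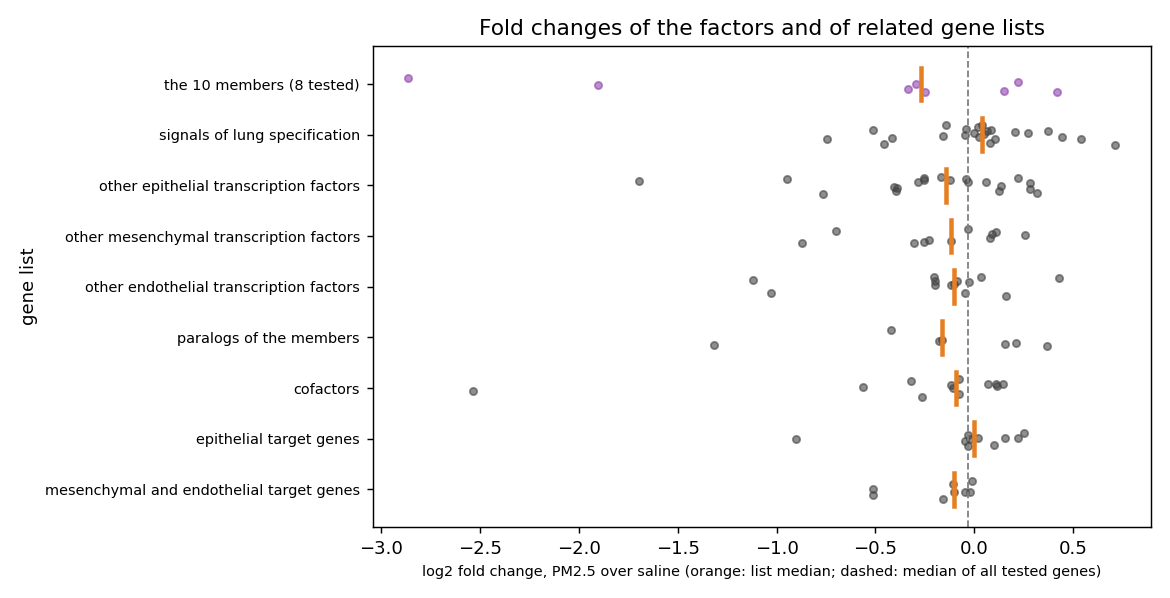
log2 fold change of FPKM + 0.5, PM2.5 over saline, of each tested gene (dots) in the 10 factors and in 8 lists of related genes, with the median of each list in orange and that of all 14865 tested genes dashed. Most genes of every list lie between -0.5 and 0.5, and the 2 factors at the far left are *Gata6* and *Foxf1*.

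Target genes of the epithelial factors were all 10 tested, with 0 past the threshold, 1 with groups that did not overlap and a median log2 fold change of -0.00079. *Scgb1a1*, the secretory protein of club cells, was 2565, 4614 and 4956 FPKM in PM2.5 libraries, against 8086, 7384 and 6377 FPKM in saline libraries (-0.90 ± 0.34 SE, adjusted p = 0.398 with limma, and -0.46 with quantile normalization). The 7 club cell markers, which include it, summed to 4961 to 5923 FPKM in PM2.5 libraries and 7284 to 9262 FPKM in saline libraries, while the 8 ciliated cell markers summed to 157 to 234 FPKM in PM2.5 libraries and 133 to 155 FPKM in saline libraries. Neither separation held without 1 gene. Without *Scgb1a1* the other 6 club cell markers summed to 967 to 2397 FPKM in PM2.5 libraries and 907 to 1475 FPKM in saline libraries. Of the 7 club cell markers, 4 had a negative log2 fold change, beside 56% of all tested genes, and the median was -0.60. The 3 positive ones were *Cyp2f2*, *Aldh1a7* and *Scgb3a2*, at 0.30, 0.31 and 0.16. Without *Tppp3* the other 7 ciliated cell markers summed to 11.3 to 34.6 FPKM in PM2.5 libraries and 17.1 to 27.3 FPKM in saline libraries. Of the 7 ciliated cell markers tested, 5 had a positive log2 fold change, and the median was 0.12. The 2 negative ones were *Foxj1* and *Ccdc39*, at -1.70 and -0.21. Club and ciliated cells are the airway cells in which *Sox2* is used. *Cldn18*, an alveolar tight junction gene, and *Sftpd*, a surfactant collectin, had log2 fold changes of 0.25 and 0.10 with overlapping groups. Other genes of the list that mark alveolar type 2 cells, named after their values were seen, differed little between groups. *Abca3*, *Napsa*, *Lamp3* and the surfactant protein gene *Sftpa1* had log2 fold changes of -0.02, -0.03, -0.05 and -0.03. *Sftpc* varied between libraries of both groups, with 6618, 588 and 1952 FPKM in PM2.5 libraries, against 8108, 687 and 861 FPKM in saline libraries.

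Target genes of the mesenchymal and endothelial factors were all 8 tested, with 0 past the threshold and a median of -0.11. All 8 log2 fold changes were negative, beside 56% of all tested genes, and 2 had groups that did not overlap. *S1pr1*, a sphingosine phosphate receptor of endothelium that *Foxf1* is known to control in mice, was 94.6, 101 and 80.4 FPKM in PM2.5 libraries, against 111, 140 and 143 FPKM in saline libraries (-0.51 ± 0.14 SE, adjusted p = 0.292 with limma). *Wnt2*, given above, was the other. *Fgf10*, the growth factor of lung mesenchyme linked to *Tbx4* and *Tbx5*, was 4.39, 5.31 and 5.13 FPKM in PM2.5 libraries, against 4.87, 6.35 and 5.55 FPKM in saline libraries (-0.16, adjusted p = 0.687, and -0.08 as a locus sum). The endothelial receptors *Kdr*, *Tie1* and *Tek*, named after their values were seen, had log2 fold changes of -0.11, -0.05 and -0.02.

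For each tested factor, the gene with the most similar course over the 6 libraries was sought among part of the tested genes, as set out below. The measure was the root-mean-square difference of log2(FPKM + 0.5), each gene centred on its own mean. A smaller value means a closer course, and with 6 libraries and so many genes a close match is a description only. *Sox17* was nearest to *Kifc2* (0.0329), *Tbx5* to *Zfp280d* (0.0781), *Tbx4* to *Tmem51* (0.0980), *Foxa2* to *Slc41a2* (0.114) and *Sox2* to *Rpl31-ps12* (0.116). *Gata6* was nearest to *Serp1* (0.107), a gene of the secretory pathway, which was 0.421, 0.487 and 21.6 FPKM in PM2.5 libraries, against 21.9, 18.8 and 19.8 FPKM in saline libraries. Both genes were low in the same PM2.5 libraries. *Foxf1* and *Foxa1* had looser matches, with *Hist1h3d* (0.318) and *Sympk* (0.393). *Hist1h3d* was 0.493, 0.931 and 0.474 FPKM in PM2.5 libraries, against 4.67, 4.98 and 2.28 FPKM in saline libraries.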

How the data were processed

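Whole-lung RNA of 3 PM2.5 and 3 saline samples was analysed from a deposited transcript table with a value per transcript and library. Per the labels' protocols, snap-frozen lungs were extracted with Trizol and 2 µg of total RNA entered a NEBNext Ultra kit, which keeps no strand information. The submitters' processing notes name bcl2fastq, HISAT2 and the build mm10, and give no versions. The quantifier is not given in the sources used here. The deposited values carry no unit and were read as FPKM, since low values of transcripts spanning 1500 to 3000 bases followed regular steps. Of these, 38.0% to 41.4% lay within 0.05 of a whole step, so no counts were recovered. Depth was searched between 15 and 29 M fragments, a range narrowed after a wider one returned a doubled step for PM2.5 replicate 4, and is an estimate.

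FPKM of Ensembl transcripts were summed per symbol. Genes averaging at least 0.5 FPKM, and likewise all such transcripts in a fit of their own, were tested on log2(FPKM + 0.5) in R 4.3.3 with limma 3.58.1 (moderated with a mean trend, 2-sided, Benjamini-Hochberg over everything tested, threshold 0.05). The script was tested on simulated data. Alternatives were pseudocounts of 1 and 0.1, no filter, a filter at a mean of 2 FPKM, scaling by median ratios, quantile normalization, each library left out, the replicate number as a block, and locus sums, which add the NONCODE transcripts of a gene's strand that have 50% or more of their span inside it. In fits without a library the genes of the full comparison were kept. Nothing in the labels states that the replicate numbers pair the samples, and the main fit did not pair them.

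Marker sums without the gene whose group means differed most were added after seeing the data. The factors and the gene lists were chosen with earlier results of these data known, and the motifs after the data were seen. All factors were named. Their transcripts and up to 2 other transcripts within 10 kb of each, those with the highest mean FPKM, were selected and counted. Not all of these transcripts are described 1 by 1. Of each list up to 3 genes with the lowest p were named. The gene most alike in course had a mean of at least 1 FPKM, and symbols naming more than 1 gene were left out after a first result. Symbols of clones and predicted genes, and symbols that begin with a capital letter and a digit, were not searched either. Coordinates are mm10 as deposited, and promoter sequences are from RefSeq (GRCm38.p6). No sequence is printed for *Gata6*.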

Additional observations from a re-analysis of the deposited data

How the results depend on the processing

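With a threshold of 0.05 on the adjusted p from limma, 14 genes passed over the whole table. With the filter raised to a mean of 2 FPKM, 9 passed. Leaving out a library gave 5 to 26, among them 22 without replicate 3 (11 higher, 11 lower) and 5 without replicate 4 of PM2.5 (0 higher, 5 lower), and 9 without replicate 3 (6 higher, 3 lower) and 26 without replicate 4 of saline (12 higher, 14 lower), beside 11 higher and 3 lower with all libraries. With the replicate number as a block 1 gene passed, and the block changed no call of a factor. For transcripts, 92 passed, 5 with the replicate block, and 128 to 203 with a library left out (154 to 203 without PM2.5 replicate 2 or 3 or saline replicate 2 or 4). Deviations of same-numbered PM2.5 and saline libraries had correlations of -0.033, -0.029 and 0.050, and not every library correlated best with its own number.

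Among the factors, *Gata6* passed only without PM2.5 replicate 4, at -4.35 (range with a library left out -4.35 to -2.07). The log2 fold change of *Foxa1* turned to -0.051 without PM2.5 replicate 2 (range -0.051 to 1.21) and that of *Sox2* to -0.11 without saline replicate 4 (range -0.11 to 0.50). The locus sum of *Foxf1* gave -0.77 in place of -1.90. *Foxa2*, *Sox17*, *Foxf1* and *Tbx5* kept their direction in all 14 alternatives and *Tbx4* in the 13 that tested it, since it falls below a mean of 2 FPKM, but their sizes moved with the libraries. With a library left out, *Foxa2* ran from -0.62 (without saline replicate 4, unadjusted p = 0.0074, adjusted p = 0.266 with limma) to -0.11 (without saline replicate 3), *Sox17* from -0.39 (without saline replicate 4) to -0.13 (without saline replicate 2), *Tbx4* from -0.53 (without saline replicate 4) to -0.033 (without saline replicate 2) and *Tbx5* from 0.0067 (without PM2.5 replicate 2) to 0.40 (without PM2.5 replicate 3). For the 23 named list genes, 319 values under the alternatives kept direction and side of the threshold. The 2 others were *Sftpd*, at -0.00894 without PM2.5 replicate 3 (range with a library left out -0.00894 to 0.19), and *Fli1*, at 0.15 as a locus sum. The causes were not tested. No difference in *Nkx2-1* or *Sox9* was detectable at their listed levels.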
